A study of Homo sapiens with 12 samples.

Results

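TC71 cells carrying an anti-miR against the microRNA miR-130b were compared with TC71 cells carrying a scrambled control, both at 48 h. Each side had 4 Illumina BeadChip arrays, numbered 1 to 4, which makes 8 of the 12 arrays of the series. The other 4 arrays, from cells with a miR-130b mimic, were left out of the fit and used only to ask whether a gene read differently under the mimic. TC71 is an established Ewing sarcoma cell line, the same line in all groups. The labels leave unsaid what kind of inhibitor the anti-miR is and if replicate arrays stem from separate cultures, so p-values measure the spread between these arrays, which may be technical. Of 47322 probes on the array, 19525 had a detection p-value under 0.05 on at least 4 of the 8 arrays and were kept. Of these, 15095 had a gene name, and they covered 11403 genes. In counts and gene lists a gene stood once, by its brightest kept probe, and 2960 genes had more than 1 kept probe.

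MicroRNAs repress messenger RNAs by pairing of their seed, bases 2 to 8, with matching sites, mostly in 3′ untranslated regions. An anti-miR is complementary to a microRNA and keeps it from pairing with its targets. ARHGAP1, the target that the title of the series names, encodes a protein that switches off the small GTPase CDC42. Active CDC42 turns on PAK kinases, and kinase cascades below them act on AP-1, the family of JUN, FOS and ATF transcription factors.

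The mature microRNAs of the miR-130 family are shown because they share a seed, and reported targets of any of them are described below as 1 list. Of 5 family members looked up, all but miR-130a-3p matched a mature sequence in RefSeq (GRCh38.p14). The 4 that matched had 1 seed in common, printed in capitals, 5′ to 3′.
miR-130b-3p: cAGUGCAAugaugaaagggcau
miR-301a-3p: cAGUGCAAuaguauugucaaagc
miR-301b-3p: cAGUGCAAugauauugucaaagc
miR-454-3p: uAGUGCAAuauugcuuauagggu
The mature sequence of miR-130b-3p lies at chr22:21653354-21653375 on the plus strand and that of miR-301b-3p close by at chr22:21653025-21653047, also on the plus strand. Those of miR-301a-3p and miR-454-3p lie on the minus strand at chr17:59151149-59151171 and chr17:59137787-59137809. Aligned without gaps from the 5′ end, miR-301b-3p was identical to miR-130b-3p at 13 of 22 positions, miR-301a-3p at 11 and miR-454-3p at 10. Without a matched sequence, miR-130a-3p was not compared. The only probe for the miR-130b precursor on the array, MIR130B, was detected on 0 of the 8 arrays, so the data hold no measure of the microRNA itself.

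Marker genes of 5 kinds of cell were looked at to describe the line. All 9 Ewing sarcoma markers on the array, among them CD99 and NKX2-2, were detected on all 8 arrays. Of 12 epithelial markers 8 were detected on 0 arrays, of 9 endothelial markers 6, and of 12 blood cell markers 5. Detected on all 8 arrays were 1 epithelial, 2 endothelial and 2 blood cell markers. Of 13 fibroblast markers, however, 8 were detected on all 8 arrays and 3 on 0 arrays.

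The anti-miR arrays were dimmer than the scramble arrays before any scaling. The median raw intensity over all probes was 88.8, 87.5, 85.5 and 86.2 on scramble arrays 1 to 4 and 81.5, 82.5, 76.3 and 72.0 on anti-miR arrays 1 to 4. There was no overlap, and anti-miR arrays 3 and 4 were the dimmest. The means were 87.0 ± 1.46 and 78.1 ± 4.88 (SD, n = 4 each), a difference of -10.3%, with an exact two-sided permutation p of 0.0286, the smallest that 4 against 4 arrays can give. The intensity at which the detection p-value passes 0.5, a measure of background, was also lower, 66.9 ± 3.76 against 71.9 ± 1.12 (SD, n = 4 each, exact permutation p = 0.0286). Dimness did not go with fewer detected probes: 19572 to 20544 were detected on the anti-miR arrays and 19008 to 19937 on the scramble arrays (exact permutation p = 0.286). The mimic arrays had medians of 84.5 to 87.6. Brightness and group therefore cannot be told apart in this comparison, and the values below are given with and without steps that bear on brightness.

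**Figure D1:**
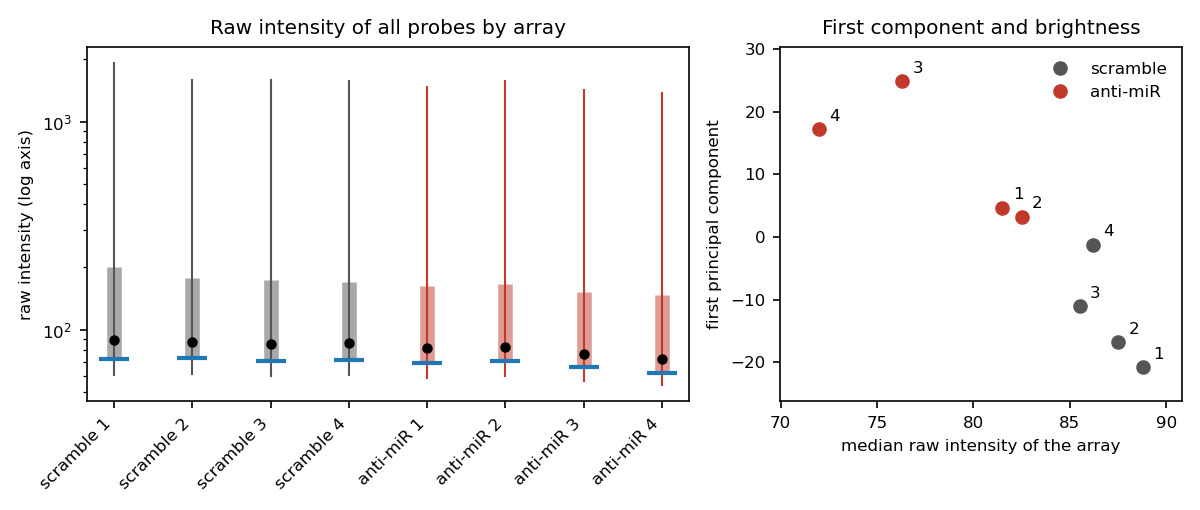
Left, raw intensity of all 47322 probes on each array, on a log axis, as the median (black point), the middle 50% (bar), the range without the outer 5% on each side (line) and the background level at detection p 0.5 (blue mark), with scramble in grey and anti-miR in red. Right, the first principal component of the kept, quantile normalized probes against the median raw intensity of each array, with array numbers. The 4 anti-miR arrays are the 4 dimmest and have the 4 highest values on the component.

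After background correction and quantile normalization the arrays remained alike. Pearson correlations over the kept probes were 0.989 to 0.994 within scramble, 0.989 to 0.992 within anti-miR and 0.985 to 0.993 between the groups. The first principal component held 29.5% of the variance. Scramble arrays 1 to 4 had values of -20.8, -16.8, -11.0 and -1.24 on it, and anti-miR arrays 1 to 4 had 4.65, 3.24, 24.8 and 17.1. All anti-miR arrays lay above all scramble arrays, and the 2 dimmest lay highest.

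Very few transcripts passed the test. With limma on the 8 arrays and Benjamini-Hochberg adjustment over all 19525 probes, 4 probes passed an adjusted p of 0.05, which is 0.0205% of those tested, 2 higher and 2 lower in anti-miR cells. An unadjusted p under 0.05 was reached by 2970 probes, 15.2% of those tested, 1341 higher and 1629 lower, where 5% would be 976. Differences were small throughout. Over the 11403 genes the median log2 difference, anti-miR minus scramble, was -0.01 with an SD of 0.19, and 90% of genes lay between -0.32 and 0.29. Only 65 genes differed by more than 0.5 upward and 76 by more than 0.5 downward on the log2 scale, and 0 differed by more than 1 in either direction.

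BMP6, a secreted growth factor of the bone morphogenetic protein family, was the 1 gene that passed in this fit, 0.00877% of the 11403 genes. It was lower in anti-miR cells. Its log2 intensity was 8.23, 8.34, 8.14 and 8.21 on scramble arrays 1 to 4 and 7.59, 7.41, 7.55 and 7.59 on anti-miR arrays 1 to 4. The groups were far apart and the 4 arrays within each lay close together. The anti-miR mean was lower by 0.69 ± 0.09 (SE) on the log2 scale, 1.62-fold (limma adjusted p = 0.0446). The call was lost when any 1 of the 8 arrays was left out, with adjusted p from 0.0641 to 0.198, while the difference stayed between -0.72 and -0.65. Against the same scramble arrays the mimic value of BMP6 was -0.53 ± 0.11, and mimic and anti-miR differed by 0.17 ± 0.11 (limma adjusted p = 0.328 in the fit of all 12 arrays). Of its receptors, BMPR2 had a difference of 0.32 (adjusted p = 0.215) on its brightest probe and 0.06 on its other probe, and ACVR1 of -0.08 (adjusted p = 0.745).

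The other 3 probes that passed have no gene name in the annotation used here. ILMN_3201937 read 5.88, 5.94, 5.92 and 5.76 on the scramble arrays and 4.86, 4.84, 5.09 and 5.08 on the anti-miR arrays. It was not above background on any anti-miR array, so it was at least 1.64-fold lower there (limma adjusted p = 0.0234). ILMN_1806044 read 4.74 to 4.91 on the scramble arrays, where it was above background on 0 of 4, and 5.39 to 5.55 on the anti-miR arrays, so it was at least 1.20-fold higher (limma adjusted p = 0.0446). ILMN_3201937 and ILMN_1806044 met the filter only through the group where they were bright. Their p-values are therefore not taken as support for a change, and among probes detected on all 8 arrays 0 passed. ILMN_1721284 read 5.11 to 5.24 on the scramble arrays and 5.77 to 6.04 on the anti-miR arrays, a rise of 0.69 ± 0.09 (limma adjusted p = 0.0446), and was detected on 3 of 4 scramble arrays. ILMN_3201937 lost its call in 11 of 22 alternatives and ILMN_1806044 and ILMN_1721284 in 17 of 22 each, and all 3 kept their direction. With 1 array left out, ILMN_3201937 passed only without scramble array 4 (limma adjusted p = 0.0480), and the other pair passed in none of these 8 fits. A bound of this kind sets the bright group's mean against, on each array of the dim group, the higher of the lowest signal among detected probes and the probe's own signal.

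Below the threshold, 12 named probes with the smallest p-values in each direction were taken, among those whose groups did not overlap and that were detected on all 4 arrays of at least 1 group. The probe taken was not always the brightest of its gene. Apart from BMP6 their adjusted p-values were 0.0625 to 0.0822, so none passed, and their values are given as descriptions. Non-overlap alone was common: 3.56% of all genes had every anti-miR array above every scramble array and 5.43% had every one below.

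On the higher side, SCAND1, a SCAN domain protein that binds zinc finger transcription factors, read 6.79, 6.81, 6.75 and 7.09 on the scramble arrays and 7.52, 7.47, 7.69 and 7.77 on the anti-miR arrays. All anti-miR arrays were above all scramble arrays, and the difference was 0.75 ± 0.11 (limma adjusted p = 0.0625), with 0.38 and 0.29 on its other 2 probes. Those 2 probes were brighter, at log2 levels of 9.85 and 10.45. PTPMT1, a mitochondrial phosphatase needed for cardiolipin synthesis, read 10.19, 9.997, 9.98 and 10.53 against 10.92, 10.83, 11.00 and 11.00, a difference of 0.76 ± 0.12. SYBU, which links vesicles to kinesin motors, read 7.99 to 8.22 against 8.64 to 8.87 and differed by 0.59 ± 0.09. These 3 were detected on all 8 arrays, as were MLC1, a membrane protein of astrocytes (0.62 ± 0.10, other probes 0.22 and 0.28), and ADI1, an enzyme of methionine salvage (0.60 ± 0.10).

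APOE, the lipid-carrying apolipoprotein E, and S100A4, a calcium-binding protein known for its part in cell motility, had the largest differences from the mimic among these 24 genes. APOE read 9.68, 9.63, 9.49 and 9.37 on the scramble arrays and 10.43, 10.003, 10.19 and 10.30 on the anti-miR arrays, a difference of 0.69 ± 0.11 (limma adjusted p = 0.0791), while the mimic value against the same scramble arrays was -0.38 ± 0.11. S100A4 read 9.89, 9.87, 9.86 and 9.90 against 10.60, 10.69, 10.30 and 10.37, a difference of 0.61 ± 0.10 (limma adjusted p = 0.0791), with 0.37 on its other probe and a mimic value of -0.49 ± 0.10. The direct difference, mimic minus anti-miR, was -1.07 for APOE and -1.10 for S100A4, and both passed the test (limma adjusted p of 0.000143 and 0.000125). Both genes were chosen by their values on the same anti-miR arrays, so these p-values are not independent of the choice.

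Of the other 5 genes on the higher side, 4 were above background on 0 of 4 scramble arrays and have only a bound. These 4 met the filter only through the anti-miR arrays. GSDMA, a pore-forming gasdermin, was at least 1.66-fold higher, SPOCK2, a matrix proteoglycan, at least 1.38-fold, ZNF804A, a zinc finger protein, at least 1.37-fold, and RRP7BP, a pseudogene of a ribosome assembly factor, at least 1.33-fold. The other RRP7BP probe was far brighter, at a log2 level of 14.2, and had a difference of 0.06. GRIK1, a kainate-type glutamate receptor subunit, differed by 0.68 ± 0.12 and was detected on 2 of 4 scramble arrays (other probe 0.52).

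**Figure D2:**
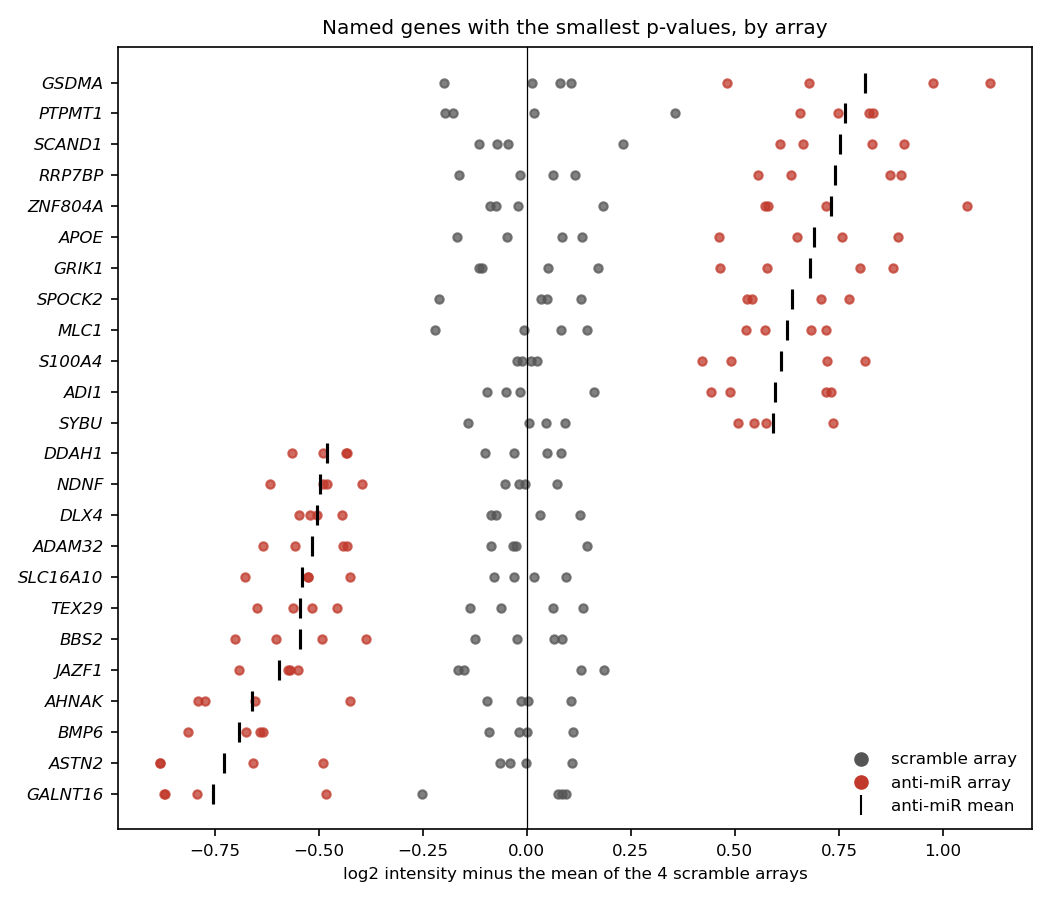
Log2 intensity minus the mean of the 4 scramble arrays for the 24 named genes with the smallest p-values, 12 on each side, with 1 point per array (grey scramble, red anti-miR) and a black mark at the anti-miR mean. The groups do not overlap in any gene, as the choice of genes required. GSDMA, SPOCK2, ZNF804A and RRP7BP were not above background on any scramble array and TEX29, DLX4 and ADAM32 on any anti-miR array, so that the distance between their groups is only a bound.

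On the lower side, GALNT16, an enzyme that starts O-linked glycosylation, read 6.48, 6.49, 6.50 and 6.16 on the scramble arrays and 5.54, 5.92, 5.61 and 5.54 on the anti-miR arrays. Scramble array 4 was the lowest of its group but lay above all anti-miR arrays, and the difference was -0.75 ± 0.12 (limma adjusted p = 0.0791). ASTN2, a neuronal membrane protein, differed by -0.73 ± 0.11, but its other 2 probes gave -0.20 and -0.11. AHNAK, a very large scaffold protein, likewise gave -0.66 ± 0.10 on 1 probe and 0.04 and -0.24 on the others, so neither gene had 1 value. BBS2, a subunit of the BBSome of cilia, gave -0.55 ± 0.10 and -0.44 on its 2 probes. JAZF1, a zinc finger cofactor, differed by -0.60 ± 0.11, SLC16A10, a transporter of aromatic amino acids, by -0.54 ± 0.09, NDNF, a secreted neurotrophic factor, by -0.50 ± 0.09, and DDAH1, which breaks down methylated arginine, by -0.48 ± 0.09. TEX29, the homeobox gene DLX4 and ADAM32 were not above background on any anti-miR array and were at least 1.18-fold, 1.10-fold and 1.33-fold lower there. They met the filter only through the scramble arrays.

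ARHGAP1 itself had a small difference in the upward direction. It read 8.72, 8.70, 8.73 and 8.74 on scramble arrays 1 to 4 and 8.96, 8.95, 8.82 and 8.92 on anti-miR arrays 1 to 4. The groups did not overlap, as in 3.56% of all genes, and the spread within scramble was very narrow. The difference was 0.19 ± 0.08 and did not pass (limma adjusted p = 0.301). It ranged from 0.18 to 0.22 when 1 array was left out, and without scaling between arrays it was -0.03. In the mimic cells the value against the same scramble arrays was -0.58 ± 0.14, and mimic minus anti-miR was -0.77 ± 0.14, which passed (limma adjusted p = 0.00504).

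The transcripts of CDC42 and PAK2, whose proteins act downstream of ARHGAP1, differed little on their brightest probes. The activity of these proteins was not measured. CDC42 had a difference of 0.04 ± 0.12 on its brightest probe, which read -0.01 under median scaling. Its other kept probes had 0.05 and 0.39 ± 0.17 (limma adjusted p = 0.326 for the latter). PAK2 had 0.04 ± 0.09 and -0.01 under median scaling. PAK1 is not analysed here, since no probe was named for it.

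Among AP-1 subunits JUN had the smallest p-value. Its log2 intensity was 8.82, 8.18, 8.28 and 8.26 on the scramble arrays and 7.66, 7.96, 7.79 and 7.73 on the anti-miR arrays. Every anti-miR array was below every scramble array, but scramble array 1 stood above the other 3. The difference was -0.60 ± 0.14 (limma adjusted p = 0.136) and -0.46 without scramble array 1. The mimic value against the same scramble arrays was 0.88 ± 0.13, and mimic minus anti-miR was 1.48 ± 0.13 (limma adjusted p = 0.000125). ATF3, a stress-induced partner of JUN, read 9.14, 8.18, 8.17 and 8.22 against 8.33, 8.22, 8.28 and 7.99. Only scramble array 1 lay above all anti-miR arrays, and the difference of -0.22 ± 0.20 became 0.01 without it. FOSL2 read 5.05 to 5.58 against 5.61 to 5.83, a difference of 0.40 ± 0.12 (limma adjusted p = 0.204), and was detected on 2 of 4 scramble arrays. JUNB had 0.29 ± 0.13 (raw means 129.65 in scramble and 128.1 in anti-miR), JUND -0.16 ± 0.09 and FOSL1 0.03 ± 0.16. The FOS probe was detected on 0 of the 8 arrays and the FOSB probe on 1 of each group. Of 15 measured AP-1 subunits 0 passed, and at an unadjusted p under 0.05 1 was higher (FOSL2) and 1 lower (JUN), beside 6.32% of all genes higher and 8.96% lower, with a median difference of 0.08.

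Immediate early and AP-1 responsive genes, which answer quickly to growth and stress signals, had a median difference of -0.14 over 35 measured genes, beside -0.01 over all genes. None passed, and at an unadjusted p under 0.05 3 were higher and 5 lower, 8.57% and 14.3% beside 6.32% and 8.96% of all genes. KLF2, a zinc finger transcription factor, read 10.96, 10.49, 10.12 and 10.005 on the scramble arrays and 9.86, 9.62, 9.30 and 9.77 on the anti-miR arrays. The groups did not overlap, although the scramble arrays spread over nearly 1 unit, and the difference was -0.76 ± 0.20 (limma adjusted p = 0.147). IER3, an early response gene, had -0.34, KLF6 -0.24, MYC -0.21 and CXCL8, the chemokine interleukin 8, -0.42 on its brightest probe but 0.29 on its other probe. In the other direction DUSP2, a phosphatase that shuts off MAP kinases, read 6.95 to 7.12 against 7.30 to 7.48 and had a difference of 0.36 ± 0.09, ZFP36L2, an RNA-binding decay factor, had 0.28 and EGR1 0.46. As a list, the median over genes of the deviation from the scramble mean was 0.06, 0.05, -0.03 and -0.02 on scramble arrays 1 to 4 and -0.08, -0.12, -0.05 and -0.08 on anti-miR arrays 1 to 4, so the groups did not overlap. With the mean over genes in place of the median they did, at -0.07 to 0.07 on the scramble arrays and -0.12 to -0.03 on the anti-miR arrays.

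**Figure D3:**
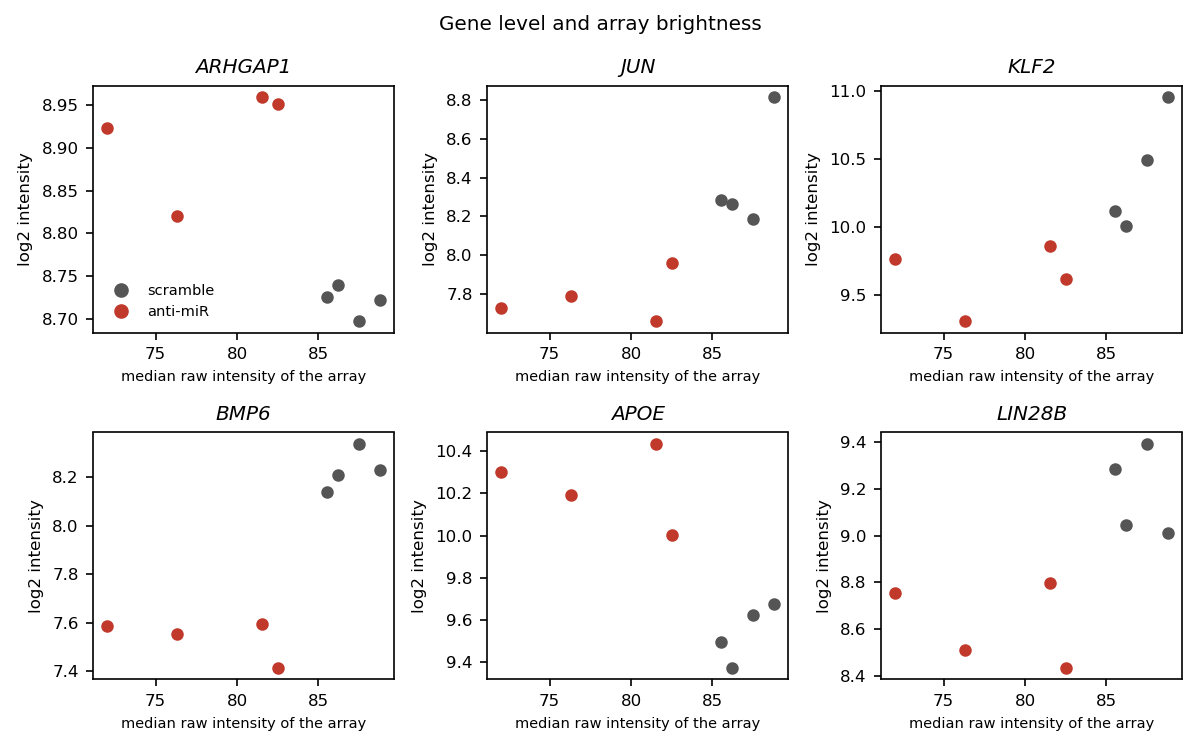
Log2 intensity of 6 genes against the median raw intensity of the array, with 1 point per array (grey scramble, red anti-miR). All 4 anti-miR arrays lie left of all scramble arrays, and JUN and KLF2 are highest on scramble array 1, the brightest array.

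Reported targets of the miR-130 family, a list written from general knowledge of genes repressed by its members, were described next. ARHGAP1, the target that the title of the series names, is in this list and in the counts below. Of 41 listed genes 37 were on the array and 24 were measured. None passed, 6 were higher and 0 lower at an unadjusted p under 0.05 (beside 6.32% and 8.96% of all genes), and the median difference was 0.04, with 13 genes above 0 and 11 below. The 6 were ATG2B, a lipid transfer protein of autophagy (0.37 ± 0.11), the cell cycle factor E2F2 (0.45 ± 0.14), the BMP receptor BMPR2 (0.32 ± 0.10, other probe 0.06), the interferon regulatory factor IRF1 (0.38 ± 0.15), the cell cycle inhibitor CDKN1A (0.29 ± 0.12) and ARHGAP1. Their limma adjusted p-values were 0.165 to 0.301.

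Array by array, only part of these 6 separated the groups. ATG2B read 5.32, 5.40, 5.13 and 5.15 on the scramble arrays and 5.47, 5.58, 5.62 and 5.82 on the anti-miR arrays, with no overlap, and was detected on 2 of 4 scramble arrays. E2F2 read 10.06, 10.09, 9.78 and 10.17 against 10.50, 10.07, 10.71 and 10.61, and IRF1 read 7.13, 6.87, 6.73 and 6.77 against 7.42, 6.82, 7.30 and 7.48. In both, anti-miR array 2 lay within the scramble range and the other 3 anti-miR arrays above it. Besides ATG2B and ARHGAP1, the groups did not overlap for RUNX3, a transcription factor (0.19 ± 0.09). In these 3 of 24 genes every anti-miR array was above every scramble array, beside 3.56% of all genes. In 0 of the 24 every one was below, beside 5.43% of all genes. At the other end the kinase STK38L had -0.21 and the growth inhibitor BTG1 -0.22, and near 0 were DICER1, which cuts microRNA precursors (-0.01, other probe -0.16), and the receptor NRP1 (-0.003).

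The same 24 genes can be set against the mimic. By limma on all 12 arrays 8 were lower and 1 higher under the mimic than under the anti-miR at an adjusted p of 0.05, where 13.2% of all probes differed in either direction and 6.95% were lower. CCNG2, a cyclin that restrains the cell cycle, had a mimic value of -1.10 and an anti-miR value of 0.06 against the same scramble arrays (-0.22 on its other probe), IRF1 had -0.80 and 0.38, RUNX3 -0.63 and 0.19, RAB5A -0.63 and -0.13, ACVR1 -0.63 and -0.08, GJA1 -0.54 and 0.04, and TSC1, an inhibitor of mTOR signalling, -0.34 and 0.21. With ARHGAP1 these are the 8, and the 1 higher under the mimic was NRP1 (0.44 and -0.003). For RAB5A and ACVR1 the anti-miR value was itself below 0. E2F2 had 0.48 under the mimic and 0.45 under the anti-miR, and CDKN1A 0.29 under both.

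Over the 50 gene families and pathways with at least 4 measured genes, median differences ran from -0.15 to 0.29, 27 above 0 and 23 below, and 0 of their genes passed the test by limma. The median over genes of the deviation from the scramble mean was higher on all 4 anti-miR arrays than on all 4 scramble arrays for 1 list, histone genes, and lower for 3, the immediate early genes, the p53 targets and the translation initiation factors. In the other 46 the groups overlapped. For the translation initiation factors the gap was minute, from -0.0006 on the highest anti-miR array to 0.0007 on the lowest scramble array. Their median difference was -0.01, as over all genes. With the mean over genes in place of the median all 4 of the lists named above overlapped. Of the 50 only Rab GTPases separated, barely, with anti-miR arrays at -0.038 or lower and scramble arrays at -0.034 or higher. Counts at an unadjusted p under 0.05 in the lists below stand beside 6.32% of all genes higher and 8.96% lower.

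**Figure D4:**
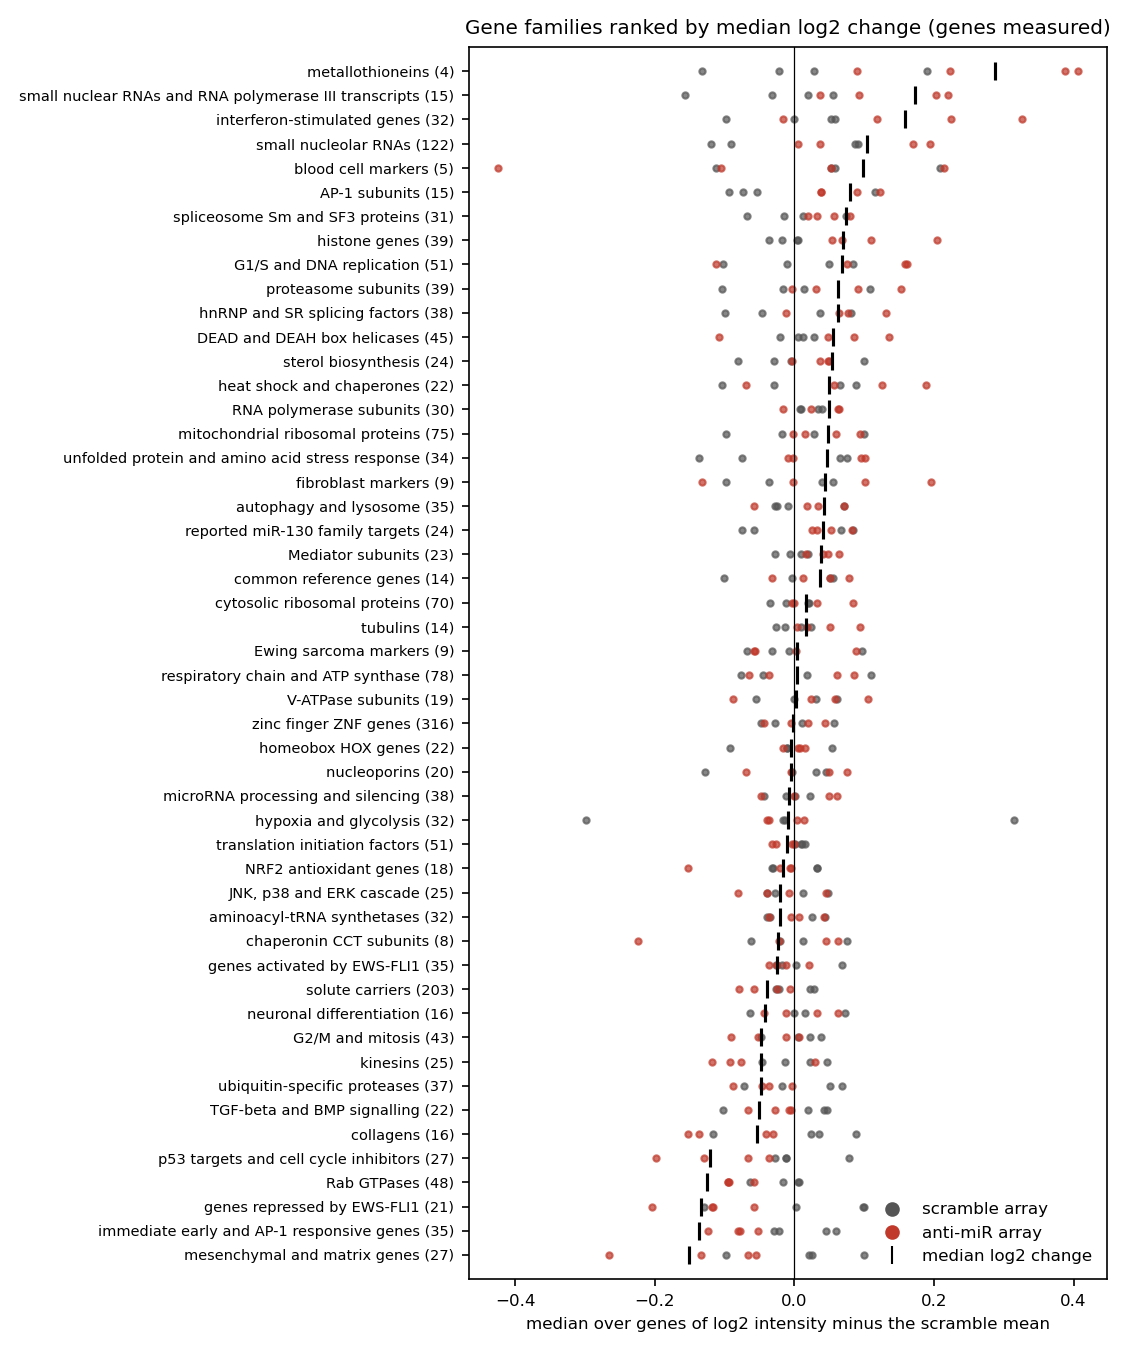
The 50 gene lists ranked by their median log2 difference, anti-miR minus scramble (black mark), with the number of genes measured in brackets. Points show, for each array (grey scramble, red anti-miR), the median over the genes of a list of the log2 intensity minus the scramble mean, and in most lists the points of the groups overlap.

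Metallothioneins, small metal-binding proteins, came first with a median of 0.29 over 4 measured genes, of which 2 were higher at an unadjusted p under 0.05. MT1E read 5.27, 5.08, 5.27 and 5.03 on the scramble arrays and 5.25, 5.54, 5.62 and 5.73 on the anti-miR arrays, and MT2A 10.11, 10.25, 10.21 and 10.48 against 10.38, 10.55, 10.62 and 10.44. The groups overlapped in both genes, and MT1X (0.34) and MT1F (0.14) had adjusted p-values of 0.406 and 0.647.

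The list of small nuclear RNAs and RNA polymerase III transcripts followed with 0.17 over 15 measured genes, 7 higher and 0 lower at an unadjusted p under 0.05. RNY1 (0.63 ± 0.25), RNY4 (0.51 ± 0.21), RNU1-3 (0.35 ± 0.13), the minor spliceosome RNA RNU4ATAC (0.30 ± 0.10) and RN7SK, which restrains transcription elongation (0.24 ± 0.11, other probe 0.10), had adjusted p-values of 0.204 to 0.319. Several of these genes have near-identical copies, so that a probe may read more than 1 of them. Small nucleolar RNAs, which guide ribosomal RNA modification, had 0.10 over 122 measured genes, 17 higher and 4 lower. Scramble arrays 3 and 4, at 0.09 each, lay above anti-miR arrays 1 and 4, at 0.01 and 0.04.

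Interferon-stimulated genes, which cells induce against viruses and foreign RNA, had a median of 0.16 over 32 measured genes, 7 higher (21.9%, beside 6.32% of all genes) and 1 lower at an unadjusted p under 0.05. IRF7, a regulator of interferon genes, read 6.34, 5.68, 5.70 and 5.85 on the scramble arrays and 6.86, 6.31, 6.30 and 6.66 on the anti-miR arrays. Scramble array 1 overlapped the anti-miR arrays, and the difference was 0.64 ± 0.17 (limma adjusted p = 0.149). OAS1, an RNA sensor, had 0.47, ISG15, a ubiquitin-like modifier, 0.35, IFI27 0.75 ± 0.41, and HLA-B, an antigen-presenting molecule, -0.38. The list's median on anti-miR arrays 1 to 4 was 0.33, -0.02, 0.12 and 0.22, so array 2 lay within the scramble range of -0.10 to 0.06.

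Histone genes had 0.07 over 39 measured genes, 4 higher and 5 lower at an unadjusted p under 0.05, 10.3% and 12.8% beside 6.32% and 8.96% of all genes. H4C12 read 6.62, 7.02, 6.79 and 7.13 on the scramble arrays and 7.32, 7.38, 7.40 and 7.46 on the anti-miR arrays, a difference of 0.50 ± 0.12 (limma adjusted p = 0.136). H3C13 had -0.40 on 1 probe and 0.59 on another, so its direction was not settled. The list's median was 0.05 to 0.20 on the anti-miR arrays and -0.04 to 0.01 on the scramble arrays, but its mean overlapped, at -0.04 to 0.15 and -0.04 to 0.02.

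G1/S and DNA replication genes had 0.07 over 51 measured genes, 3 higher and 1 lower, but -0.12 with array brightness as a covariate and -0.01 with the 2 brightest anti-miR arrays. CDK6, a kinase that drives the G1 phase, read 6.26, 6.16, 6.24 and 6.13 on the scramble arrays and 5.58, 5.86, 5.63 and 5.83 on the anti-miR arrays, a difference of -0.47 ± 0.09 (limma adjusted p = 0.0991), opposite in sign to the list. Cytosolic ribosomal proteins (0.02 over 70 genes), respiratory chain genes (0.004 over 78) and zinc finger ZNF genes (-0.002 over 316) lay at the middle of the ranking, where all genes lay.

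Hypoxia and glycolysis genes differed more among the scramble arrays than between the groups. Their median deviation from the scramble mean over 32 measured genes was -0.30, -0.02, 0.32 and -0.01 on scramble arrays 1 to 4 and -0.04, 0.01, -0.04 and 0.003 on anti-miR arrays 1 to 4. Scramble array 1 was lowest and scramble array 3 highest, and the median difference between the groups was -0.01. SLC2A3, a glucose transporter, read 10.28, 10.35, 10.85 and 10.11 on the scramble arrays and 9.99, 10.31, 9.65 and 10.02 on the anti-miR arrays, a difference of -0.41 ± 0.17 (limma adjusted p = 0.301).

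The lower end of the ranking held mesenchymal and matrix genes, with a median of -0.15 over 27 measured genes, 1 higher and 10 lower at an unadjusted p under 0.05, 3.70% and 37.0% beside 6.32% and 8.96% of all genes. LAMC1, a laminin chain of basement membranes, read 9.94, 9.93, 9.73 and 9.64 on the scramble arrays and 9.36, 9.50, 9.29 and 9.38 on the anti-miR arrays, a difference of -0.43 ± 0.10 (limma adjusted p = 0.138). ITGAV, an integrin subunit, read 8.60, 8.53, 8.53 and 8.37 against 8.14, 8.17, 8.06 and 8.28, a difference of -0.35 ± 0.09, and COL3A1, a fibrillar collagen, 9.38, 9.58, 9.58 and 9.19 against 9.01, 9.18, 8.82 and 9.02, a difference of -0.42 ± 0.12. The groups did not overlap in any of these 3. Over the whole list, 4 of 27 genes had every anti-miR array below every scramble array, beside 5.43% of all genes. In the other direction 0 had every anti-miR array above, beside 3.56% of all genes. LOX, which crosslinks collagen, had -0.38, the matrix protein TNC -0.37 (but 0.37 on its other probe), SPARC -0.31 and the integrin ITGB1 -0.24, and the 1 gene on the higher side was the protease inhibitor TIMP3 at 0.33.

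Fibroblast markers were looked at beside this list, since matrix genes also mark stromal cells. All groups were the same cultured line, TC71, so these markers were read in that line. Of 13, 8 were detected on all 8 arrays and 3 on 0 arrays, and the summed intensity of the 9 kept was 4549 to 5196 on the scramble arrays and 4117 to 5309 on the anti-miR arrays, which overlap. Their part in the matrix values was not tested, and in bulk RNA fewer cells expressing a gene and less RNA per cell cannot be told apart.

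Genes that the EWSR1-FLI1 fusion of Ewing sarcoma is known to repress share several of these members. They had a median of -0.13 over 21 measured genes, 2 higher and 6 lower at an unadjusted p under 0.05, and the 6 were JUN, COL3A1, LOX, TNC, BCL6 (-0.33) and SPARC. Genes that the fusion activates had -0.02 over 35 measured genes. Rab GTPases, which steer vesicle traffic, had -0.13 over 48 genes, 4 higher and 7 lower, 8.33% and 14.6% beside 6.32% and 8.96% of all genes. RAB8B read 8.76, 8.74, 8.72 and 8.76 on the scramble arrays and 8.39, 8.65, 8.22 and 8.34 on the anti-miR arrays (-0.34 ± 0.10), and RAB23 9.81, 9.89, 9.82 and 9.80 against 9.43, 9.54, 9.60 and 9.52 (-0.31 ± 0.08, other probe -0.19). In both, every anti-miR array was below every scramble array. The same held for 6 of the 48 Rab genes, beside 5.43% of all genes. In 3 of the 48 every anti-miR array was above every scramble array, beside 3.56% of all genes. p53 targets and cell cycle inhibitors had -0.12 over 27 genes, 3 higher and 2 lower. ZMAT3, a p53-induced RNA-binding protein, had -0.33 on 1 probe and -0.01 and -0.21 on the others, against 0.29 for CDKN1A.

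Among genes of microRNA processing and silencing the median was -0.01 over 38 measured genes. LIN28B, which blocks maturation of let-7 microRNAs, read 9.01, 9.39, 9.28 and 9.04 on the scramble arrays and 8.80, 8.43, 8.51 and 8.75 on the anti-miR arrays. The groups did not overlap, and the difference was -0.56 ± 0.12 (limma adjusted p = 0.126). TGF-beta and BMP signalling genes had -0.05 over 22, with TGFBR3, a co-receptor, at -0.41 ± 0.10.

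The spread of the differences and the share of small p-values varied with how bright a probe was. The kept probes were cut into 10 bins of equal size by mean log2 intensity. In the dimmest bin the median difference was -0.04 and the middle 50% ran from -0.19 to 0.13, and in the brightest bin the median was 0.002 and the middle 50% ran from -0.07 to 0.07. Quantile normalization gives all arrays the same distribution, so bin medians near 0 were largely set by it. An unadjusted p under 0.05 was reached by 6.50% of probes higher and 9.88% lower in the dimmest bin, 9.06% and 10.5% in the third, and 2.51% and 2.87% in the brightest. With median scaling in place of quantile normalization the median was -0.04 to -0.07 in the 9 dimmer bins and 0.004 in the brightest. Median scaling made the median of all 47322 probes equal, including the probes not kept, so these values depend on that choice.

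**Figure D5:**
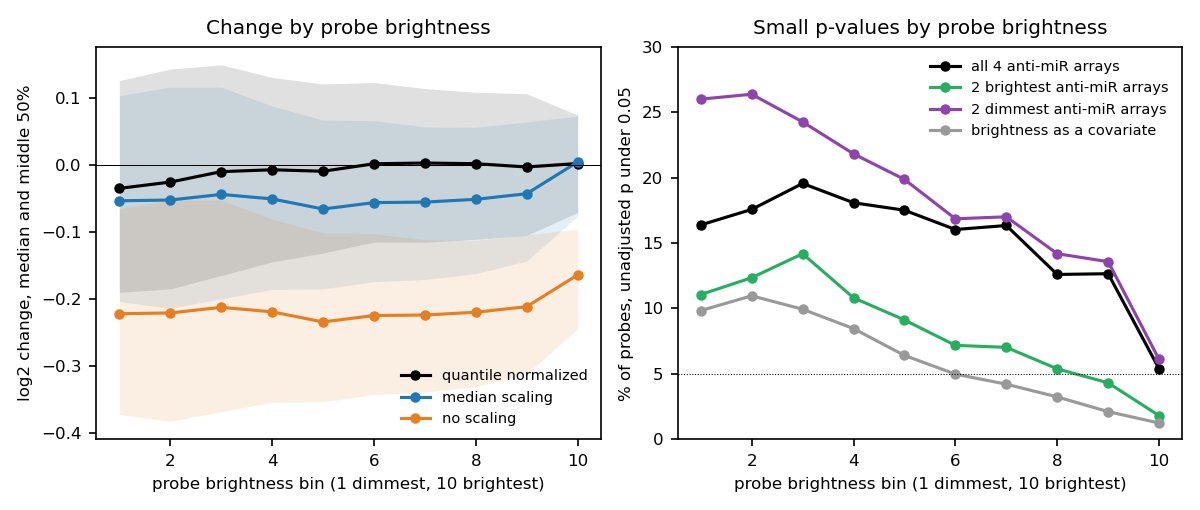
Left, median log2 difference (line) and middle 50% (shading) in 10 bins of probe brightness under quantile normalization (black), median scaling (blue) and no scaling (orange). Right, the percentage of probes with an unadjusted p under 0.05 per bin with all 4 anti-miR arrays (black), with the 2 brightest of them (green), with the 2 dimmest (purple) and with array brightness as a covariate (grey), where the dotted line marks 5%. The share is lowest in the brightest bin in all 4 fits.

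The share of small p-values varied with the arrays as well. With only the 2 brightest anti-miR arrays (1 and 2) against the 4 scramble arrays, 1624 probes, 8.32%, had an unadjusted p under 0.05, and with only the 2 dimmest (3 and 4), 3633 probes did, 18.6%, at nearly equal median standard errors of 0.14. Neither had a probe with an adjusted p under 0.05 by limma. With the log2 median raw intensity of each array as a covariate the number was 1197, 6.13%, and 0 probes passed, but the groups do not overlap in brightness, and the median standard error was 0.19, against 0.12 without the covariate.

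The 24 genes were chosen for groups that do not overlap, which fixes their direction with any 2 of the anti-miR arrays, so only sizes are given. BMP6 had -0.75 with the covariate, -0.72 with the 2 brightest and -0.66 with the 2 dimmest, APOE 0.67, 0.68 and 0.70, and S100A4 0.87, 0.77 and 0.46. ARHGAP1 had 0.23, 0.23 and 0.15 in the same 3 fits, and JUN -0.44, -0.58 and -0.63. Of the 24, 12 were in the 3 dimmest bins.

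The medians of the lists also moved with the arrays and the scaling. Of 50 lists, 33 kept the sign of their median with brightness as a covariate, 38 with the 2 brightest and 41 with the 2 dimmest anti-miR arrays, and 46 under median scaling. Metallothioneins had 0.18, 0.23 and 0.33 in the first 3 of these fits, and interferon-stimulated genes 0.14, 0.16 and 0.14. Small nuclear RNAs had -0.04 with the covariate, 0.07 with the 2 brightest and 0.16 with the 2 dimmest arrays. Mesenchymal and matrix genes had -0.03, -0.09 and -0.23, genes repressed by EWSR1-FLI1 -0.06, -0.11 and -0.16, and Rab GTPases -0.05, -0.10 and -0.14, so that each list was nearer to 0 on the brighter arrays. p53 targets had -0.08, -0.10 and -0.13 and immediate early genes -0.11, -0.08 and -0.07. The miR-130 family targets had 0.08, 0.04 and 0.09, and -0.004 under median scaling. Without scaling between arrays the median of all probes was -0.21 and 49 of the 50 list medians were below 0, and relative to that shift the lists stood as under median scaling.

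Set directly against the mimic, far more probes passed. In the fit of all 12 arrays mimic and anti-miR differed for 2583 of 19525 probes, 13.2%, with 1226 higher and 1357 lower under the mimic. Of the 24 genes with the smallest p-values, 6 of 12 on the higher side (SCAND1, SYBU, SPOCK2, MLC1, APOE and S100A4) and 5 of 12 on the lower side (SLC16A10, TEX29, DLX4, JAZF1 and DDAH1) differed from the mimic. PTPMT1 had 0.70 under the mimic and 0.76 under the anti-miR, AHNAK -0.66 on both, and BMP6 -0.53 and -0.69. These pairs of values share the 4 scramble arrays, so their likeness is not given as a result. The 24 genes were chosen on the anti-miR arrays that the difference from the mimic uses. The 6 and 5 that differed are therefore not given as a result either.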

How the data were processed

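Gene expression was measured once per array on 12 Illumina BeadChips, 4 per group, and 8 are used here. Trizol was used to extract total RNA, a column kit to clean it, and an Illumina kit to make biotin-labelled cRNA, per the labels' protocols. The deposited raw table holds, per the file headers, a mean signal intensity for each probe and array, and a detection p-value for each as deposited. The deposited normalized table holds intensity values of the same 12 arrays; the scanner software and the normalization are not given in the sources used here. All array columns matched a label.

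Raw intensities were background-corrected with normexp estimated from the detection p-values (offset 16), quantile normalized over the 8 arrays and put on the log2 scale. Probes with a detection p-value under 0.05 on at least 4 of 8 arrays were kept. Group means were compared with limma 3.58.1 in R 4.3.3 (lmFit and eBayes), with Benjamini-Hochberg adjustment over all kept probes, and errors given with differences are its standard errors. Probe names came from the platform annotation, with symbols updated through RefSeq: 30113 probes had 1 gene name, 8 several and 17201 none, and 30074 of the named ones matched by Entrez ID. Single values per array were compared with exact two-sided permutation tests. The number of arrays limits the precision. Simulated data with 19525 probes, of which 200 were changed, were put through the test. Recovered were 39 of 100 probes changed by 0.5 and 90 of 100 changed by 1 on the log2 scale. Of 134 calls 5 were false. These rates belong to the simulated data and need not hold for the arrays compared here.

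Named genes were the ARHGAP1, CDC42, PAK and AP-1 genes, the 12 on each side described in the text, and from each list with at least 4 measured genes the 2 with the smallest p-values; other list members named in the text were chosen after their values were seen. The comparison, the 52 gene lists and the named genes were chosen with earlier results of these data known. The lists were written from general knowledge and described by counts and medians, with no test; 50 were ranked, and the endothelial and epithelial markers, with 2 measured genes each, were not. A further list is not reported here. Replicate numbers are shared by the groups, but the correlations of the deviations of same-numbered arrays were 0.07, -0.20, 0.06 and -0.18, so they were not treated as pairs. Alternatives covered scaling, background, filter, covariates, weights, the prior, the source table and the arrays used.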

Additional observations from a re-analysis of the deposited data

Results flagged for a closer look

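In 5 of 76 groups of 4 arrays that were checked for the named genes, 1 array stood far from the other 3; chance gives about 1 in 20. JUN on scramble array 1 read 8.82, where the other scramble arrays read 8.18 to 8.28. ATF3 on the same array read 9.14, where the others read 8.17 to 8.22. GALNT16 on scramble array 4 read 6.16 (others 6.48 to 6.50), and JAZF1 on anti-miR array 1 read 5.47 (others 5.59 to 5.61). PAK2 on scramble array 3 read 9.43 (others 9.34 to 9.35). Scramble array 1 was also the brightest of the 8 arrays, with a median raw intensity of 88.8; the part of brightness in the JUN and ATF3 values was not tested.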

How the results depend on the processing

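Beside 4 probes and 1 gene called, the fit called 1 and 0 under median scaling, 222 and 135 without scaling between arrays (4 higher and 218 lower), 24 and 14 without background correction, 26 and 16 at an offset of 50, 38 and 18 with 12 arrays in the fit, 47 and 24 with array weights, and 28 and 18 with a trend and robust prior. Cyclic loess called 8 probes, and the values normalized by the authors gave 2 genes. It called 0 and 0 with probes detected on all 8 arrays (smallest adjusted p = 0.0537), with the replicate block (2614 probes at an unadjusted p under 0.05), with array brightness as a covariate, and with the 2 brightest or the 2 dimmest anti-miR arrays; the last was added after seeing the data. Leaving out 1 array called 0 to 2 probes and 0 to 1 genes (2 probes without scramble array 4, 1 without anti-miR array 2, 0 otherwise). BMP6 stayed past the threshold in 9 of 23 alternatives and kept its direction in all 23 (-0.92 to -0.56). The sign of a gene that did not pass turned in a few fits. Without scaling between arrays the differences were ARHGAP1 -0.035, CDC42 -0.18, FOSL1 -0.17, PAK2 -0.18, LSM8 -0.035, DNAJB6 -0.00030, DCN -0.055, MED28 -0.0085 and LIPI -0.081. Under median scaling they were CDC42 -0.0083, FOSL1 -0.0015 and PAK2 -0.012. With brightness as a covariate they were ATF3 0.13, JUNB -0.13, PAK2 -0.035 and HOXC13 0.066. With the 2 dimmest anti-miR arrays they were CDC42 -0.024 and FOSL1 -0.17. Leaving out 1 array gave ATF3 -0.31 to 0.014, CDC42 -0.023 to 0.14, FOSL1 -0.077 to 0.16 and PAK2 -0.0059 to 0.093. The cause of these changes was not tested, except that fewer probes or arrays were in some fits by construction. With 4 arrays a side, differences of 0.5 on the log2 scale were mostly below what the test could call.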
